A study of Mus musculus with 16 samples.

Results

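The hypothalamus of mice given celastrol together with a fixed food ration (PF+CS) was set beside that of mice given DMSO with the same ration (PF), so that the groups differed in the drug and not in the food offered. The members were the 4 PF+CS and 4 PF libraries, 8 of the 16 in the series, chosen by the names of the count columns and the sample titles. All mice were C57BL/6J made obese on a high-fat diet, and all were first accustomed to daily intraperitoneal DMSO for 1 week and then treated for 4 days. In the PF+CS group the drug was celastrol, injected daily at 100 µg per kg, and food was limited to 0.5 g of the diet per day, 0.34 g in the dark phase and 0.16 g in the light phase. PF mice received DMSO and that same ration, which was below the 0.8 g that celastrol-treated mice ate on average. The other groups ate freely and received celastrol (CS) or DMSO (Veh), with 4 libraries each. On the last day mice were injected at about 8 am, the tissue was collected 6 h later, and its RNA was sequenced in bulk.

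The labels carry one conflict that decides what this comparison means. The authors' deposited tables include 5 comparisons, and the mean counts in each could be matched exactly to a choice of count columns, but only 2 of the 5 table names matched those columns. No deposited table was made from the columns named PF+CS and PF (0 of 5). The one named for that comparison, with 521 genes at an adjusted p of at most 0.05 in the authors' deposited table, was made from the PF+CS and CS columns. Groups are called here by the column names and sample titles. If the names PF and CS were exchanged in the columns, the differences described here would be those of the ration in celastrol-treated mice, and the drug under the ration would be the PF+CS minus CS columns, whose values are given at the end. Which set of names is right cannot be told apart from the files.

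Celastrol, a triterpenoid from thunder god vine, makes obese mice eat less. Its action is attributed to restored sensitivity to leptin, the fat-derived hormone that activates Pomc neurons and restrains Agrp neurons in the arcuate nucleus, and in cells the compound also induces the heat shock response through Hsf1 and inhibits NF-kB. A lower food intake by itself changes the same neurons, since fasting raises Agrp and Npy and lowers Pomc. A ration shared by drug-treated and control mice takes that difference in intake out of the comparison.

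Library totals were 7862917 to 11116425 counts in PF+CS and 6008564 to 10899099 in PF, and the common biological coefficient of variation over the series was 0.0549. The nuclear ribosomal precursor Rn45s took 3.21 ± 0.558% of counts in PF+CS and 3.17 ± 0.537% in PF (SD, n = 4 each). Markers of neurons, astrocytes, oligodendrocytes and hypothalamic peptide neurons were present in all libraries. The haemoglobin genes had no counts in PF+CS and PF, but neither had Rpl26 and Ndufs5, which every cell uses, so the blood content of the tissue cannot be read from them. Markers of fibroblasts of the meninges, which wrap the brain, were uneven: their summed level was 205, 251, 289 and 68.0 CPM in PF+CS libraries 1 to 4 and 62.6, 65.4, 232 and 177 CPM in PF libraries 1 to 4. PF 1, PF 2 and PF+CS 4 thus carried little of this tissue, so that low libraries were 1 of 4 in PF+CS and 2 of 4 in PF. In the other groups, CS 2 and Veh 3 were as low.

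Celastrol added to the ration was accompanied by few and small differences. Of 14775 genes tested, 14 were called at a Benjamini-Hochberg adjusted p of at most 0.05 (edgeR quasi-likelihood test on all 16 libraries), 13 higher and 1 lower in PF+CS, which is 0.0948% of the genes tested, with 0.088% called higher and 0.00677% called lower. The largest change was 0.52 and the smallest 0.22 on the log2 scale, and none of the 14 reached 1.5-fold (0 genes). The higher genes encode a chromatin enzyme and nuclear RNA-processing proteins (Kmt2d, Srrm2, Akap8l), regulators of actin and microtubules (Coro6, Lrrc16b, Arhgef2, Nav2), extracellular matrix proteins (Adamts10, Col11a1, Col4a2), cell-surface proteins (Heg1, Celsr3) and Leng8. The lower gene was Vgf, a precursor of secreted neuropeptides. In all 14 the PF+CS and PF libraries did not overlap, as was the case for 4.16% of all tested genes. At an unadjusted p under 0.05 there were 1160 genes (7.85%), 619 higher (4.19%) and 541 lower (3.66%). These are tissue RNAs, in which fewer cells of a type and less RNA per cell cannot be told apart. Of 769 tested genes in 52 lists of pathways and cell type markers, 2 were called, Heg1 and Vgf.

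The count of calls depended on single libraries. It was 3 without PF 1, 1 without PF 2, 6 without PF+CS 2 and 7 without PF+CS 3, and it was 24 without PF 4 and 20 without PF+CS 4. It was 0 without PF 1 and PF 2 together, and 0 without the 5 libraries of the series that were low in meningeal markers, fits in which fewer samples remained. No called gene changed direction in any of these fits.

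**Figure D1:**
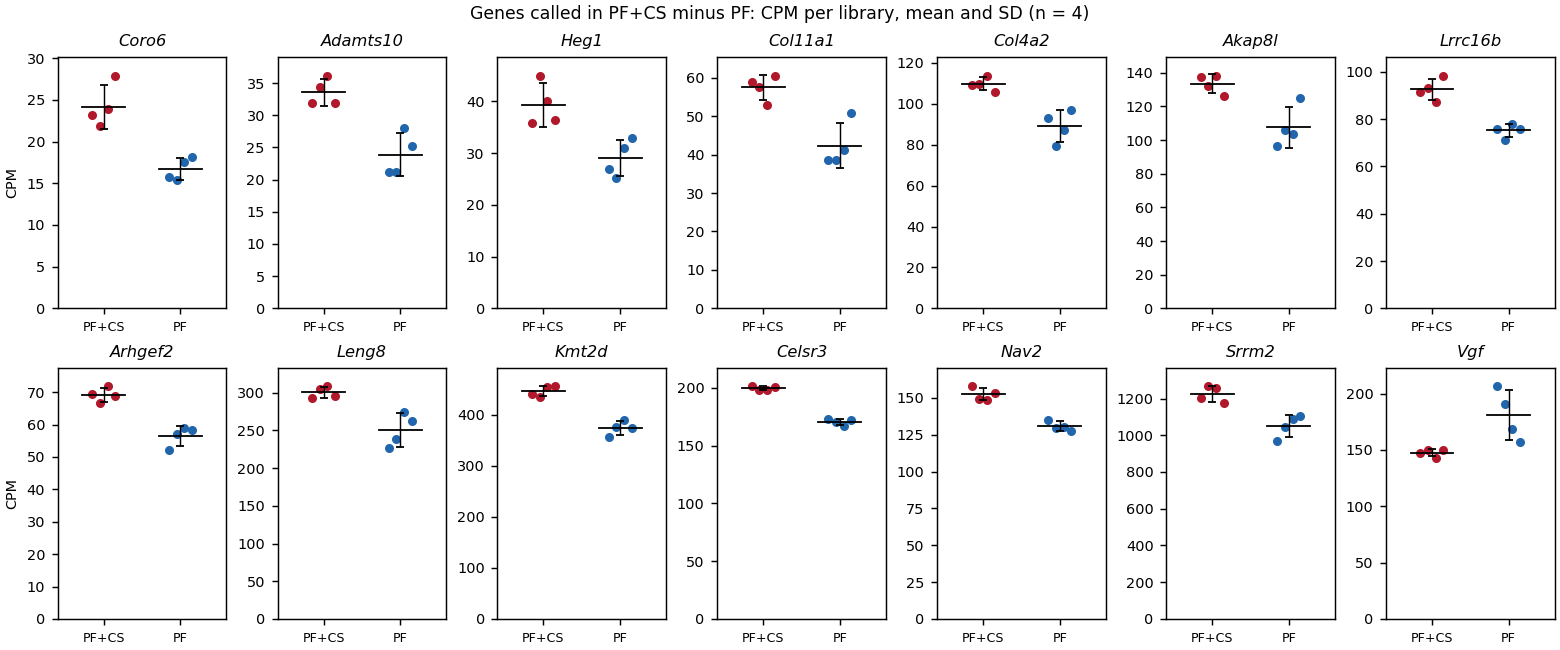
CPM (counts scaled to the size of the library, vertical axes from 0) of the 14 called genes in each PF+CS library (left) and PF library (right), with lines for the mean and bars for the SD of 4 libraries. The groups do not overlap in any panel, and Vgf, at 143 to 150.4 CPM in PF+CS against 157 to 207 CPM in PF, is the only one lower in PF+CS.

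Kmt2d (15:98831669-98871204, GRCm38) encodes a methyltransferase that places methyl groups on histone H3 lysine 4 at enhancers. It had 441, 434, 455 and 456 CPM in the PF+CS libraries, against 357, 377, 389.6 and 374 CPM in the PF libraries, so the lowest PF+CS library lay well above the highest PF library. Kmt2d was 19.3% higher in PF+CS (log2 0.25, SE 0.04, edgeR adjusted p = 0.00425), the smallest adjusted p of the comparison, and it was called whichever of the 8 libraries was left out (8 of 8 fits). Srrm2 (17:23790532-23824741), a large scaffold protein of nuclear speckles where splicing factors gather, had 1204, 1267, 1257 and 1175 CPM in PF+CS and 968, 1045, 1087 and 1102 CPM in PF. It rose by log2 0.22 (SE 0.04, adjusted p = 0.0106), the smallest change among the 14, and lost its call without PF 2 (adjusted p = 0.0557). Akap8l (17:32321424-32350607), a nuclear anchoring protein related to the A-kinase anchor family, had 137, 132, 138 and 126 CPM in PF+CS and 96.4, 106, 103 and 125 CPM in PF, where PF 4 lay just under the lowest PF+CS library. It rose by log2 0.30 (SE 0.05, adjusted p = 0.0106), with no call without PF 1, PF 2 or PF+CS 3, where the adjusted p reached up to 0.0952. Leng8 (7:4137039-4148177) had 293, 304, 308 and 295 CPM in PF+CS and 226, 238, 274 and 263 CPM in PF, a rise of log2 0.26 (SE 0.05, adjusted p = 0.0310) that was called in 2 of the 8 fits that leave out a library (adjusted p up to 0.1715). Leng8 overlaps Leng9 and Srrm2 overlaps Elob on the opposite strand, and the strand of the libraries is not given in the sources used here. Reads in the overlapping stretches therefore cannot be told apart from those of these neighbours. Among the other called genes, Heg1, Nav2, Celsr3, Arhgef2 and Col4a2 also overlap annotated genes or gene models.

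Coro6 (11:77462411-77470484) is a coronin, a protein that binds actin filaments. Its level was 23.1, 21.8, 23.9 and 27.9 CPM in the PF+CS libraries and 15.7, 15.4, 17.5 and 18.2 CPM in the PF libraries, with PF+CS 4 the highest of all. Coro6 was 43.8% higher in PF+CS (log2 0.52, SE 0.09, edgeR adjusted p = 0.0106), the largest change among the called genes, and lost its call without PF 1 or PF 2 (adjusted p up to 0.121). Lrrc16b (14:55490651-55508272), which the annotation names Carmil3, belongs to the CARMIL family of regulators of actin capping protein. It had 91.4, 93.03, 87.3 and 98.3 CPM in PF+CS and 75.99, 71.3, 77.9 and 75.8 CPM in PF and rose by log2 0.30 (SE 0.06, adjusted p = 0.0145), with no call without PF 1, PF 2 or PF+CS 2 (adjusted p up to 0.133). Nav2 (7:48908716-49610090), a neuron navigator protein that acts on microtubules in growing neurites, had 158, 149.5, 149 and 153 CPM in PF+CS and 135, 129.6, 130.5 and 128 CPM in PF. It rose by log2 0.22 (SE 0.04, adjusted p = 0.0106) and lost its call only without PF 2 among the 8 fits that leave out a library (adjusted p = 0.0770).

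Arhgef2 (3:88605966-88648052), also known as GEF-H1, is an exchange factor that is held on microtubules and activates RhoA. It stood apart from the other called genes in where the groups lay. Its level was 69.3, 66.7, 71.8 and 68.8 CPM in PF+CS and 52.01, 56.9, 58.9 and 58.2 CPM in PF, a rise of log2 0.29 (SE 0.05, adjusted p = 0.0106). The free-feeding groups had 69.1, 70.6, 69.5 and 74.8 CPM in CS and 70.5, 70.96, 65.7 and 70.2 CPM in Veh, so that the 12 libraries outside PF lay between 65.7 and 74.8 CPM and all 4 PF libraries between 52.0 and 58.9 CPM. The PF libraries were thus the low ones, and the PF+CS libraries were at the level of the free-feeding mice. Without PF 1, PF 2 or PF+CS 3 the gene was not called (adjusted p up to 0.0770). Arhgef2 overlaps the gene model Gm20652 on the opposite strand.

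Adamts10 (17:33524204-33553782) is a secreted metalloprotease that associates with fibrillin microfibrils. It had 31.9, 34.4, 36.1 and 31.9 CPM in PF+CS and 21.1, 21.1, 27.98 and 25.3 CPM in PF, and was 40.8% higher in PF+CS (log2 0.49, SE 0.09, adjusted p = 0.0106). Col11a1 (3:114030540-114220718), a chain of a fibrillar collagen, had 58.99, 57.6, 52.9 and 60.5 CPM in PF+CS and 38.5, 38.7, 41.1 and 50.9 CPM in PF. The lowest PF+CS library lay just above PF 4, the highest PF library, and Col11a1 rose by log2 0.42 (SE 0.08, adjusted p = 0.0145). Col4a2 (8:11312805-11449287), a chain of the type IV collagen that forms the basement membrane of vessels, had 109, 109.8, 114 and 106 CPM in PF+CS, against 92.9, 79.3, 87.2 and 97.04 CPM in PF. Its rise of log2 0.30 (SE 0.06, adjusted p = 0.0455) was close to the threshold, and the gene overlaps Col4a1 on the opposite strand. Of the 8 fits that leave out a library, Adamts10 was called in 4, Col11a1 in 3 and Col4a2 in 2, and the adjusted p reached at most 0.127 for Adamts10 and Col11a1 and 0.255 for Col4a2. PF 1 and PF 2, without which none of the 3 was called, were also the PF libraries low in meningeal markers, and the part of that tissue in these differences was not tested. Without both, the log2 differences were 0.35 for Adamts10, 0.30 for Col11a1 and 0.25 for Col4a2, none of them called.

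Celsr3 (9:108826320-108852969), an atypical cadherin needed for axon guidance, had narrow groups. Its level was 201, 199, 198 and 201 CPM in PF+CS and 173, 171, 167 and 172 CPM in PF. The rise of log2 0.23 (SE 0.04, adjusted p = 0.0265) was called in 2 of the 8 fits that leave out a library, with an adjusted p of up to 0.127, and in the free-feeding groups the libraries were spread from 161 to 192.5 CPM. Without the 5 libraries low in meningeal markers its log2 difference was 0.23 (adjusted p = 0.422).

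A list of endothelial genes had positive differences, and 1 of its members was called. Col4a2, called above, is not on that list. Heg1 (16:33684370-33771576) encodes a transmembrane protein of endothelial cells that works with the cerebral cavernous malformation proteins to keep cell junctions closed. It had 35.8, 44.97, 39.99 and 36.5 CPM in PF+CS and 27.02, 25.3, 30.9 and 32.9 CPM in PF, and was 34.8% higher in PF+CS (log2 0.43, SE 0.08, edgeR adjusted p = 0.0149). Without PF 1, PF 2, PF+CS 2 or PF+CS 3 it was not called (adjusted p up to 0.166). All 17 members of a list of endothelial junction proteins and receptors of vascular endothelial growth factor (VEGF) had a positive difference, with a median of 0.42 against −0.01 for all tested genes. On the deposited FPKM values the list median was smaller, at 0.28 for log2(FPKM + 0.1) and 0.14 for log2(FPKM + 1). Of the 17, 1 was called (0.0948% of all tested genes were), 12 had an unadjusted p under 0.05 (7.85% of all), and 6 did not overlap between the groups (4.16% of all). Without PF+CS 3, 7 had an unadjusted p under 0.05. Values of members that did not pass include 0.33 for the VEGF receptor Flt1 (adjusted p = 0.221), 0.59 for the adhesion molecule Pecam1 (adjusted p = 0.255), 0.39 for the TGF-β co-receptor Eng (adjusted p = 0.255) and 0.58 for the tight junction protein Cldn5 (adjusted p = 0.556). Flt1 had 82.6, 80.9, 88.4 and 74.2 CPM in PF+CS and 57.1, 67.4, 60.96 and 71.6 CPM in PF. The smallest differences in the list were 0.08 for Tjp1 and 0.09 for Tek.

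The summed level of the 17 vascular genes was 451, 477, 519 and 449 CPM in PF+CS libraries 1 to 4, against 358, 396, 423 and 412 CPM in PF libraries 1 to 4, without overlap. The 4 endothelial markers, all members of that list, had a median difference of 0.58 with none called, and summed to 121 to 149 CPM in PF+CS and 84.9 to 113 CPM in PF. Von Willebrand factor (Vwf), a secreted endothelial protein, had 46.3, 51.02, 62.6 and 45.4 CPM in PF+CS, against 33.4, 27.5, 33.3 and 31.2 CPM in PF, a log2 difference of 0.73 (SE 0.16, adjusted p = 0.198). Markers of pericytes and smooth muscle had a median difference of 0.74, with 4 of 4 positive and none called. Acta2, the smooth muscle actin, led them at 9.67, 18.1, 29.6 and 6.68 CPM in PF+CS and 3.38, 2.75, 6.48 and 5.53 CPM in PF (log2 1.85, SE 0.72, adjusted p = 0.534). PF+CS 3, the library highest in meningeal markers, was also the highest in Acta2, in the 17 vascular genes and in the endothelial markers.

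Meningeal markers moved in the same direction as the vessel genes. Their 8 genes all had positive differences, with a median of 0.51 and none called, and they ranged from 68.0 to 289 CPM in PF+CS and from 62.6 to 232 CPM in PF. Without PF 1 and PF 2 the meningeal median was 0.06, while the vascular median was 0.31, with 7 of 17 at an unadjusted p under 0.05 and none called, and the endothelial median was 0.35. Without the 5 low libraries the vascular median was 0.34, with 6 of 17 at an unadjusted p under 0.05, and the meningeal median was 0.27. Transporters of the blood-brain barrier had a median of 0.05 over 12 genes, with none at an unadjusted p under 0.05, and summed to 843 to 876 CPM in PF+CS and 786 to 827 CPM in PF, without overlap. The part of the shares of vessel and meningeal tissue in these differences was not tested.

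**Figure D2:**
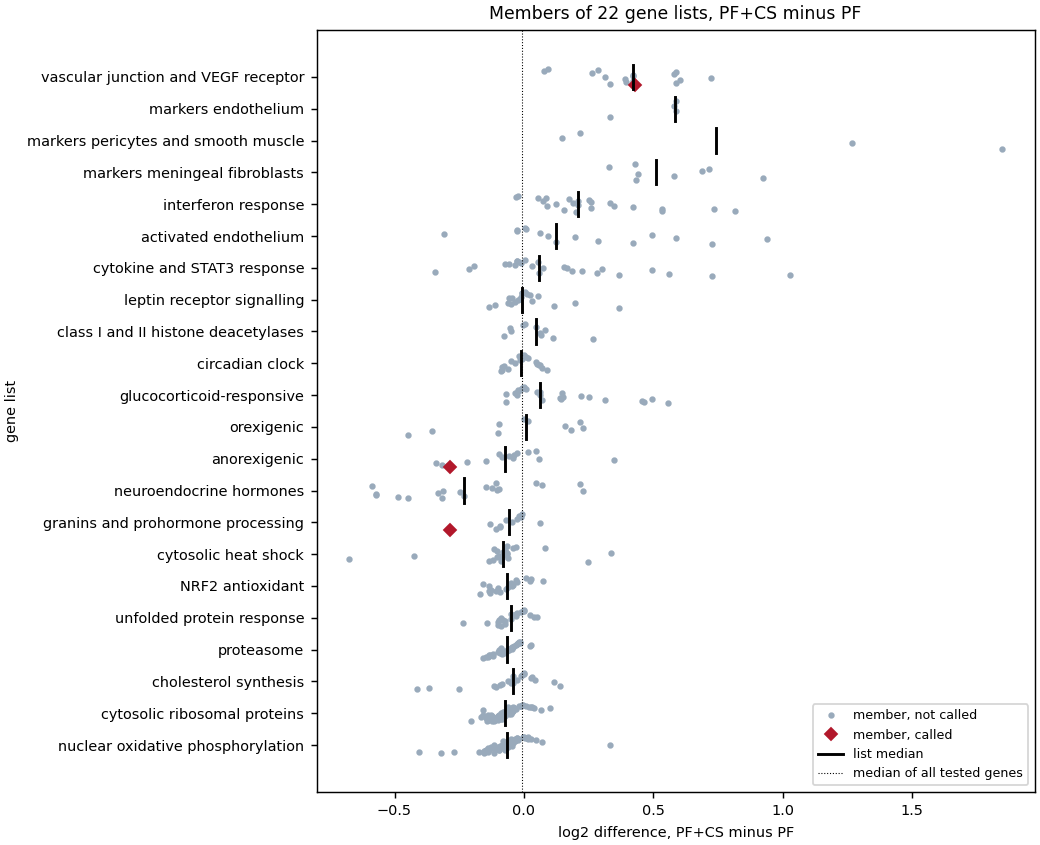
Log2 differences of PF+CS minus PF (horizontal axis) for the tested members of 22 gene lists (rows), with grey points for members that were not called, red diamonds for called members, a black bar for the list median and a dotted line for the median of all tested genes. The vascular, mural and meningeal lists lie to the right with medians of 0.42 to 0.74, and the hormone list lies to the left with a median of −0.23. Vgf appears in both the anorexigenic and the granin list.

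The gene called lower, Vgf (5:137026392-137033351), encodes a granin-like precursor that is cleaved into several secreted peptides, is induced by neurotrophins and neuronal activity, and is needed for normal energy balance in mice. It had 147, 150.0, 143 and 150.4 CPM in the PF+CS libraries, against 207, 191, 169 and 157 CPM in the PF libraries. The PF+CS libraries were close together, whereas the PF libraries were spread, with PF 4 next to the PF+CS range and PF 1 far above it. Vgf fell by 0.29 on the log2 scale (SE 0.06, edgeR adjusted p = 0.0475), to 148 ± 3.39 CPM in PF+CS against 181 ± 22.2 CPM in PF (SD, n = 4 each). In the free-feeding groups it had 151, 157, 151 and 155 CPM in CS and 206, 210.3, 199.8 and 218 CPM in Veh, a log2 difference of −0.44 (adjusted p = 0.00079). The call under the ration was near the threshold: it was kept in 2 of the 8 fits that leave out a library (adjusted p up to 0.2325), lost with DESeq2 size factors (adjusted p = 0.0508) and with voom (adjusted p = 0.0614), and without PF 1 and PF 2 the difference was −0.14.

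Among the 12 granins and prohormone-processing enzymes, Vgf was the 1 called, and 5, Vgf included, were lower at an unadjusted p under 0.05, with a list median of −0.06; 3.66% of all tested genes were lower at that p. Without PF 1 or without PF+CS 1 only 1 member had such a p, and without PF 1 the median was −0.02. The summed level of the list overlapped, at 3863 to 4002 CPM in PF+CS and 3913 to 4343 CPM in PF. The values of the other 4 were small. Secretogranin II (Scg2) had 771, 779, 746 and 773 CPM in PF+CS and 887, 853, 792 and 782 CPM in PF (log2 −0.11, adjusted p = 0.563). The chaperone 7B2 of the processing enzyme PC2 (Scg5) differed by log2 −0.09, chromogranin B (Chgb) by −0.09, and the convertase Pcsk1 by −0.13, each with an adjusted p of 0.575 to 0.577. In CS minus Veh, Scg2, Scg5 and Chgb differed by 0.01, 0.03 and 0.08, and Pcsk1 by −0.17.

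Promoters of granins are known to respond to cAMP through a CRE, the sequence TGACGTCA bound by CREB. The RefSeq promoter windows (GRCm38.p6, 250 bases before to 50 after the gene start, on the gene's strand) are shown for the 3 granin genes next in p to Vgf, with the CRE in capitals; the motif is its own reverse complement, so both strands were searched at once. Vgf and Cpe were not searched.
Scg2, chr1:79439977-79440276, minus strand: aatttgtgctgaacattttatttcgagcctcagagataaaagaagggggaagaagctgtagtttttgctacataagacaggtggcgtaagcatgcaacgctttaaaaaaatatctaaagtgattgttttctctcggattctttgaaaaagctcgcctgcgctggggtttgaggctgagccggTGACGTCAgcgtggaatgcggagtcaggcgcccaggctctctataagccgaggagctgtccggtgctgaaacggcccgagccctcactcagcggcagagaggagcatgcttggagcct
Scg5, chr2:113829042-113829341, minus strand: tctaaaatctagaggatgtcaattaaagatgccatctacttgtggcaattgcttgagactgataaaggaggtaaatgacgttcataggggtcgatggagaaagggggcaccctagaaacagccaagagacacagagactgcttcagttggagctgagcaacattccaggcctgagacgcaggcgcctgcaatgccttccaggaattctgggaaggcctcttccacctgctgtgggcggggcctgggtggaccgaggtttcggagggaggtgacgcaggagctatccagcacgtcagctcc
Chgb, chr2:132781392-132781691, plus strand: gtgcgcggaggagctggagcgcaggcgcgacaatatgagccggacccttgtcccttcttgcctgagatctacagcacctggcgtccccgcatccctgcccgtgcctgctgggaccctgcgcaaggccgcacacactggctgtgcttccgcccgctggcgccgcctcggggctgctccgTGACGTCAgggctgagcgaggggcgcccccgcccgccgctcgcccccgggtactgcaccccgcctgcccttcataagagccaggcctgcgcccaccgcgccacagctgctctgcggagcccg
The motif begins at position −68 in Scg2 and −72 in Chgb relative to the gene start, and is not among the letters of the Scg5 window. It was present in 3 of the 10 members of the list with a window, the third being Pcsk1 at −78, and in 3.18% of the 10925 tested genes with a window and 1.79% of all 32851 windows. These are matches of letters, and no binding was measured.

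The other genes that lay lowest in PF+CS were given by their p and did not pass. Marcksl1, a membrane-bound actin regulator, was nearest to the threshold, at 64.5, 60.5, 57.2 and 65.4 CPM in PF+CS and 73.3, 76.6, 78.3 and 68.7 CPM in PF (log2 −0.26, SE 0.06, adjusted p = 0.0521). Gad1, the enzyme that makes GABA, had 284, 268, 276 and 262 CPM in PF+CS and 296, 343, 305 and 294 CPM in PF (log2 −0.18, adjusted p = 0.113). Galanin (Gal), a peptide that stimulates feeding, had 19.2, 16.9, 15.8 and 19.4 CPM in PF+CS, against 22.6, 24.8, 29.5 and 20.6 CPM in PF, without overlap (log2 −0.45, SE 0.11, adjusted p = 0.152). The same gene differed by log2 −0.48 in CS minus Veh, where it was called (adjusted p = 0.0270). The calcitonin receptor Calcr, through which amylin acts, had 33.3, 26.8, 29.7 and 30.1 CPM in PF+CS and 32.6, 39.03, 36.96 and 37.9 CPM in PF, with PF 1 inside the PF+CS range (log2 −0.30, adjusted p = 0.176). The remaining 7 of these genes had log2 differences of −0.29 (Tmem158), −0.16 (Itm2c), −0.32 (Ndufb7, a subunit of respiratory complex I), −0.24 (Ankmy2), −0.32 (Cib2), −0.76 (Tmem215) and −0.19 (Arhgap36), with adjusted p from 0.152 to 0.186. Tmem215 was low, at 4.52, 4.34, 4.57 and 4.76 CPM in PF+CS and 5.91, 9.67, 9.72 and 5.53 CPM in PF, with PF 2 and PF 3 the high libraries.

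Neuropeptides and hormones gave mostly negative differences. Of 19 tested members of the neuroendocrine list, 15 were negative with a median of −0.23, none was called, and 7 were lower at an unadjusted p under 0.05, against 3.66% of all tested genes. The summed level overlapped, at 964 to 1043 CPM in PF+CS and 962 to 1136 CPM in PF, and PF 3 was the lowest of the 8 libraries. The median was −0.14 without PF 1, and 2 members had an unadjusted p under 0.05 without PF 3, 3 without PF+CS 2, and 4 without PF 2 or PF+CS 4. Besides Gal these included thyrotropin-releasing hormone (Trh), which had 73.6, 57.4, 64.5 and 51.7 CPM in PF+CS and 71.6, 81.02, 87.3 and 70.04 CPM in PF (log2 −0.32, adjusted p = 0.381), and tyrosine hydroxylase (Th), at 16.7, 15.9, 13.4 and 17.6 CPM in PF+CS and 22.5, 18.1, 18.7 and 15.9 CPM in PF (log2 −0.23, adjusted p = 0.577). Oxytocin (Oxt) differed by log2 −0.33, neurotensin (Nts) by −0.57 and vasopressin (Avp) by −0.31. Without PF 1 and PF 2 the list median was −0.09, with 4 of 19 at an unadjusted p under 0.05.

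The principal feeding peptides differed by less than their spread between libraries. Agrp, the melanocortin antagonist of hunger neurons, had 4.31, 3.65, 4.39 and 3.21 CPM in PF+CS and 3.88, 3.41, 3.24 and 4.79 CPM in PF (log2 0.02, SE 0.19, adjusted p = 0.994). Npy, which the same neurons release, had 18.9, 15.5, 21.3 and 15.7 CPM in PF+CS and 15.7, 16.5, 14.4 and 17.4 CPM in PF (log2 0.16, SE 0.11, adjusted p = 0.787). Both sets of libraries overlapped, and the sign for Agrp turned when single libraries were left out. Pomc, the precursor of the satiety peptide α-MSH, had 16.3, 16.8, 16.7 and 20.2 CPM in PF+CS and 23.6, 16.7, 16.9 and 17.5 CPM in PF (log2 −0.08, SE 0.14, adjusted p = 0.930), with PF 1 the one high library of PF; without it the difference was 0.03. Cartpt, a second peptide of Pomc neurons, had 53.1, 42.9, 53.3 and 57.2 CPM in PF+CS and 68.6, 54.4, 53.3 and 53.9 CPM in PF (log2 −0.15, adjusted p = 0.793), and PF 1 was again the highest.

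Of the 10 orexigenic genes tested none was called, and of the 16 anorexigenic genes 1 was called, Vgf. At an unadjusted p under 0.05, 3 of the 10 (Gal, Cnr1, Npy5r) and 3 of the 16 (Vgf, Calcr, Trh) were lower and none was higher. Over all tested genes, 3.66% were lower and 4.19% higher at that p. Gal, Trh and Vgf are also among the hormones and granins counted above. By sign, 6 of the 10 orexigenic genes were positive (median 0.01), as were 4 of the 16 anorexigenic genes (median −0.07). Of the receptors on these lists, the NPY receptor Npy5r (log2 −0.36), the cannabinoid receptor Cnr1 (−0.10) and the melanocortin receptor Mc4r (−0.34) did not pass. Their edgeR adjusted p were 0.569, 0.520 and 0.678. These receptors were named with their values known and do not stand for feeding receptors as a class. In the melanocortin list, none of 10 was called, 3 were positive and the median was −0.06.

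**Figure D3:**
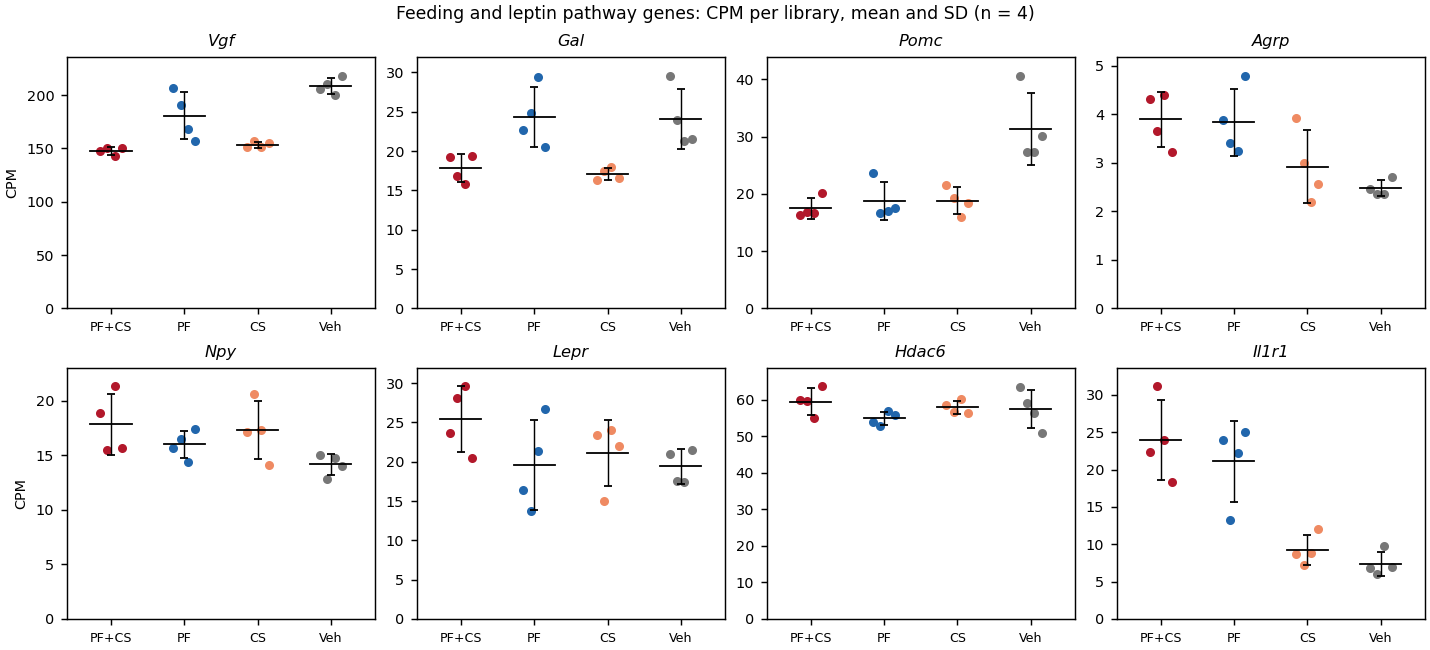
CPM per library (vertical axes from 0) of 8 genes of feeding and leptin signalling in PF+CS, PF, CS and Veh, with lines for the mean and bars for the SD of 4 libraries. PF+CS and PF overlap for all but Vgf and Gal, and Il1r1 is at 18.4 to 31.2 CPM in PF+CS and 13.2 to 24.97 CPM in PF, against 6.01 to 12.003 CPM in the free-feeding groups.

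Leptin signalling and the deacetylase named in the title of the series showed no called gene. The leptin receptor Lepr had 23.7, 28.1, 29.6 and 20.4 CPM in PF+CS and 16.4, 13.7, 21.4 and 26.7 CPM in PF; the libraries overlapped and the difference of log2 0.37 (SE 0.20, edgeR adjusted p = 0.703) did not pass. PF 1 and PF 2 were the lowest for this gene. None of the 20 genes of the leptin receptor list had an unadjusted p under 0.05, and their median was −0.01. Among the inhibitors of the pathway, Socs3 had 9.25, 11.2, 7.35 and 3.08 CPM in PF+CS and 10.5, 4.29, 4.56 and 10.6 CPM in PF, spread widely in both groups (log2 0.06, SE 0.37), and Ptpn1 differed by log2 0.12 (SE 0.08, adjusted p = 0.764). Il1r1, the interleukin-1 receptor, differed by log2 0.20 (SE 0.21, adjusted p = 0.885).

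Hdac6, a cytoplasmic deacetylase of tubulin and Hsp90, had 59.9, 59.6, 54.97 and 63.7 CPM in PF+CS and 54.04, 52.9, 56.99 and 55.9 CPM in PF (log2 0.11, SE 0.06, adjusted p = 0.676), with PF+CS 3 inside the PF range. Of the 11 class I and II deacetylases none was called and 1 had an unadjusted p under 0.05, a share near that of all tested genes (7.85%). That was Hdac7, a class II deacetylase known for its part in vessel integrity, at 45.8, 41.3, 41.1 and 43.4 CPM in PF+CS and 37.1, 34.3, 32.5 and 38.2 CPM in PF, without overlap (log2 0.27, SE 0.07, adjusted p = 0.189).

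In the stress pathways that celastrol induces or inhibits in cultured cells, no gene was called. For the counts that follow, 6991 of all 14775 tested genes were positive. At an unadjusted p under 0.05, 3.66% of all were lower and 4.19% higher, 7.85% either way. Of 23 cytosolic heat shock genes 3 were positive, with a median of −0.08 and none called. Hsf1, the transcription factor of this response, had 38.7, 36.5, 36.2 and 35.2 CPM in PF+CS and 33.3, 29.02, 28.9 and 32.5 CPM in PF (log2 0.25, adjusted p = 0.236). Members of the list ranged from log2 −0.67 to 0.34. Those with a negative value included the Hsp90 co-chaperone Fkbp4 (−0.14) and Hspa4 (−0.09). The NRF2 antioxidant list had a median of −0.06 over 20 genes and the unfolded protein response list one of −0.05 over 22 genes. Each had 2 members lower at an unadjusted p under 0.05 and none called. In the unfolded protein response list these were the chaperones Canx (−0.09) and Hyou1 (−0.10). Of 14 tested NF-kB targets none was called, and 1, the NF-kB subunit Rela at log2 0.18, had an unadjusted p under 0.05. The inducible targets Ccl2, Cxcl1, Cxcl10, Il1b, Tnf and Il6 had too few counts to be tested. Immediate early genes had a median of −0.01 over 21 genes, with 4 higher and 0 lower at an unadjusted p under 0.05. The highest of these were Klf4 (log2 0.87) and Ier2 (log2 1.05), at edgeR adjusted p of 0.198 and 0.255. Interferon-induced genes were positive in 21 of 23, with a median of 0.21, and none at an unadjusted p under 0.05. PF+CS 4 stood out, with a summed level of 334 CPM against 229 to 261 CPM in the other PF+CS libraries and 219 to 266 CPM in PF, and without it the median was 0.0052.

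Genes of ribosomes, mitochondria and proteasomes had small negative medians, with none called. At an unadjusted p under 0.05, 3.66% of all tested genes were lower. Cytosolic ribosomal proteins had a median of −0.07 over 76 genes, none called and 16 lower at an unadjusted p under 0.05. They summed to 6642 to 6873 CPM in PF+CS and 6899 to 7496 CPM in PF, without overlap, and 4 had such a p without PF 1 and 5 without PF+CS 2. Nuclear genes of oxidative phosphorylation had a median of −0.07 over 78 genes, with 18 lower at an unadjusted p under 0.05 and none called. Examples are Cox4i1, a subunit of cytochrome c oxidase, at 183, 169, 169.7 and 175 CPM in PF+CS and 209, 196, 186 and 186 CPM in PF (log2 −0.15, adjusted p = 0.255), and Atp5b, a subunit of ATP synthase, at log2 −0.12. The proteasome list had a median of −0.07 over 33 genes, with 9 lower at an unadjusted p under 0.05, a count that was 3 without PF+CS 3, 4 without PF 1 or PF 2, and 5 without PF+CS 4. Mitochondrial ribosomal proteins had a median of −0.08 over 76 genes, with 4 lower and 1 higher at an unadjusted p under 0.05, a share near that of all tested genes. Without PF 1 and PF 2 the medians were −0.04 for cytosolic ribosomal proteins, with 1 of 76 at an unadjusted p under 0.05, and −0.04 for oxidative phosphorylation, with 6 of 78.

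The called genes were mostly long, although Akap8l (2102 bases), Coro6 (2804 bases) and Vgf (2834 bases) were below the median of all tested genes. The 13 called higher had a median longest transcript of 6450 bases and a GC content of 56.6%, against 3199 bases and 50.1% for all tested genes; Kmt2d, at 19823 bases, was the longest. Among genes at an unadjusted p under 0.05 the median was 4109.5 bases for those higher in PF+CS and 2646 bases for those lower. Over 5 classes of length with about equal numbers of genes, shortest to longest, the median difference was −0.04, −0.02, −0.01, 0.00058 and 0.01, and the classes held 0, 1, 2, 4 and 7 of the called genes. The same gradient was present in CS minus Veh, with medians of −0.05 in the shortest and 0.03 in the longest class. In single libraries, the level of the longest class against the shortest was 0.02 to 0.06 on the log2 scale in PF+CS and −0.04 to 0.03 in PF, with one PF library inside the PF+CS range. With an offset for each library's dependence on length and GC content, chosen after seeing the data, 7 genes were called, 5 of them among the 14 (Coro6, Adamts10, Heg1, Col11a1, Akap8l). The other 2, Marcksl1 and Itm2c, were lower. Kmt2d then differed by log2 0.18 (adjusted p = 0.0610) and Vgf by −0.31 (adjusted p = 0.0610), and the vascular median was 0.37. Whether the gradient is of the tissue or of library preparation was not tested.

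**Figure D4:**
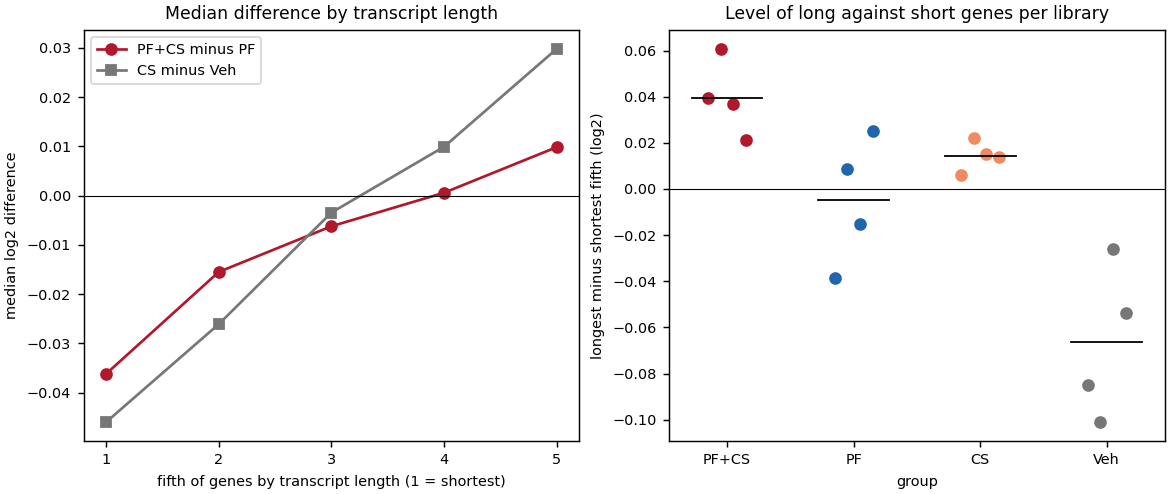
Left: median log2 difference (vertical axis) of genes in 5 classes of transcript length (horizontal axis, shortest to longest) for PF+CS minus PF and CS minus Veh. Right: per library, the log2 level of the longest minus the shortest class of genes, with lines for group means. Both differences go up with length, and the PF+CS libraries, at 0.02 to 0.06, lie higher than 3 of the 4 PF libraries.

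The drug was also compared in mice that ate freely, with libraries that are not shared. Food was not fixed in CS and Veh, so the drug and any difference in intake cannot be told apart in CS minus Veh. In CS minus Veh, 132 genes were called (0.893%), 45 higher and 87 lower. All 14 genes called under the ration had the same sign there. In 7 of them CS and Veh did not overlap, as in 8.94% of all tested genes, and 7 were also called: Heg1, Col11a1, Leng8, Kmt2d, Nav2, Srrm2 and Vgf. Heg1 differed by 0.49, Srrm2 by 0.23 and Nav2 by 0.19 on the log2 scale in CS minus Veh, close to their values of 0.43, 0.22 and 0.22 in PF+CS minus PF. Conversely, of the 132 genes called in CS minus Veh, 127 (96.2%) had the same sign in PF+CS minus PF and 55 an unadjusted p under 0.05, while over all tested genes 59.1% had the same sign. Across the 14775 genes, which are not independent replicates, Pearson's r between the differences was 0.281. If the names PF and CS were exchanged, these 2 comparisons would be of the ration, once with and once without the drug.

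**Figure D5:**
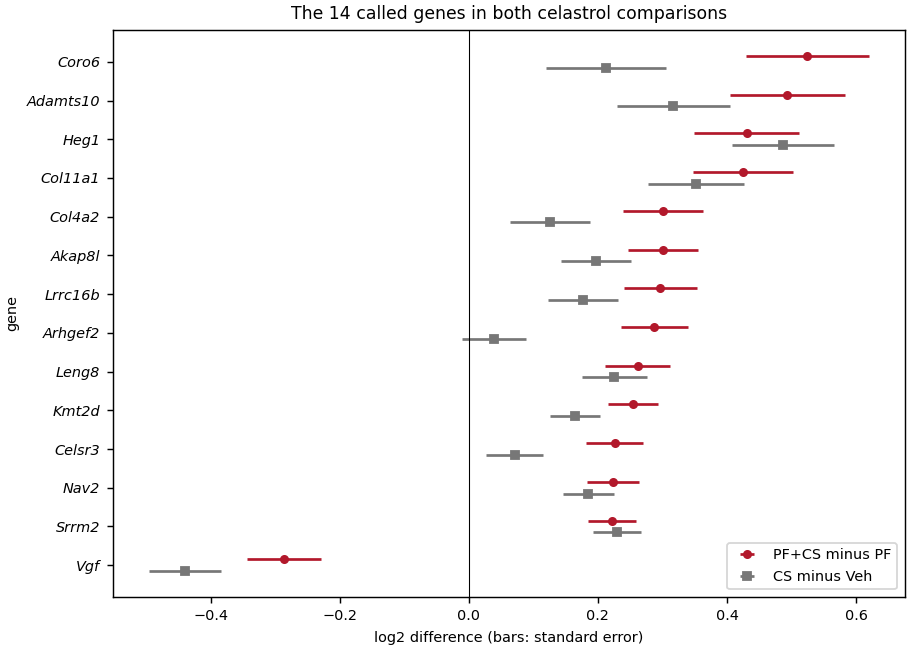
Log2 differences with standard errors (horizontal axis) of the 14 called genes (rows) in PF+CS minus PF (red circles) and CS minus Veh (grey squares). All 14 pairs have the same sign, and for Arhgef2 the difference is 0.29 under the ration and 0.04 with free food.

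No gene was called as differing between the celastrol differences under the ration and with free food. The second of these also holds any difference in intake. In the interaction, (PF+CS minus PF) minus (CS minus Veh), 0 genes were called by edgeR, with 741 (5.02%) at an unadjusted p under 0.05, and DESeq2 and voom also called 0. This contrast keeps its value and sign if PF and CS are exchanged. Of the 14 called genes, 3 had an unadjusted interaction p under 0.05, with log2 values of 0.25 for Arhgef2, 0.15 for Celsr3 and 0.31 for Coro6, and all had an edgeR adjusted p of 0.913. The 14 were selected by PF+CS minus PF, which is part of this contrast, so the selection itself moves their interaction values. Of the 14, 11 were larger in size in PF+CS minus PF than in CS minus Veh. The 3 are therefore not to be read against the 5.02% of all genes. Pomc had 0.65 (SE 0.19, adjusted p = 0.913). Its level was 17.5 ± 1.81 CPM in PF+CS and 18.7 ± 3.31 CPM in PF, and 18.8 ± 2.32 CPM in CS and 31.4 ± 6.32 CPM in Veh, where the log2 difference was −0.73 (adjusted p = 0.0106). The genes of smallest p in the positive direction were Gpr162 (0.27), Ddx28 (0.76), Polr2c (0.43), Zfp36l2 (0.41), Apeh (0.36) and Tcn2 (0.55). In the negative direction they were Ankrd12 (−0.23), Fhdc1 (−0.64), Pura (−0.27), Pnn (−0.23), Ccar1 (−0.25) and Ssb (−0.22), all 12 with an adjusted p of 0.913. Ankrd12, for example, differed by −0.06 in PF+CS minus PF and by 0.17 in CS minus Veh, where it was called (adjusted p = 0.0279).

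Under the exchanged names, the drug under the ration would be PF+CS minus CS. That difference, which shares the PF+CS libraries with the one described above, had 392 called genes (2.65%), 264 higher and 128 lower. Among the 14 genes, Col4a2 alone was called there (log2 0.29, adjusted p = 0.00883), and Kmt2d (0.12), Heg1 (0.01), Srrm2 (0.02) and Vgf (−0.06) were not. Il1r1 differed by 1.37 (adjusted p = 0.00937), against 0.20 in PF+CS minus PF, and Lepr by 0.27 (adjusted p = 0.574), against 0.37. Ptpn1, an inhibitor of leptin signalling, was called at 0.30 (adjusted p = 0.0326), against 0.12. Pomc (−0.10), Agrp (0.45) and Npy (0.07) were not called in it.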

How the data were processed

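RNA of 16 hypothalamus samples was measured in bulk; per the labels' protocols, extraction used a column kit and library preparation a SMARTer mRNA kit. The authors deposited a table of raw counts, whole numbers for each gene, and another whose name says counts but whose values behave as FPKM and were read as such. They also deposited comparison tables with a baseMean (another unit, a mean of normalised counts), log2 fold changes with standard errors, p-values and adjusted p-values. Per the submitters' processing notes the build was GRCm38; no source used here gives aligner, counter or strand. No column came from another series (0 columns), and 27 of 24047 gene names had become dates and were never named. The labels do not say whether mice shared cages or litters, so p-values measure the spread between these samples.

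The counts of all 16 libraries (6008564 to 12880459 in total, which limits precision for low genes) were scaled by TMM, filtered with filterByExpr (minimum count 10; 14775 genes were left) and fitted by robust quasi-likelihood with edgeR 4.0.16 in R 4.3.3. Genes were called at a Benjamini-Hochberg adjusted p of at most 0.05. CPM values use the TMM scaling, and levels of different genes are not compared. Members, contrasts and 52 gene lists were chosen with earlier results of these data known. The rule for named genes took, each way, up to 12 called genes of largest change (log2 CPM averaging 1 or more, libraries not overlapping, no provisional gene models), and filled up by smallest p. It took up to 6 each way in the interaction, a fixed set of genes followed whatever their values (Agrp, Npy, Pomc, Cartpt, Lepr, Socs3, Ptpn1, Il1r1, Hdac6) and up to 4 members of a list by p. Srrm2, called but outside the first 12, and list members outside the rule (Oxt, Nts, Avp, Tjp1, Tek, Pcsk1, Npy5r, Cnr1, Mc4r) were named after their values were seen. Lengths and GC content come from the longest protein-coding transcript in GENCODE M21 (99.1% of tested genes). Alternatives were other scalings, no filter, DESeq2 1.42.0, voom in limma 3.58.1, log2(FPKM + 0.1 or 1) with limma, leaving out libraries, and a replicate block. The values of 1 gene are not reported here.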

Additional observations from a re-analysis of the deposited data

Results flagged for a closer look

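In 198 groups of 4 libraries (99 named genes in PF+CS and in PF), 9 values lay so far from the other 3 of their group that Dixon's test at the 95% level marked them, which chance does in about 1 in 20 groups. Of these, 4 were in PF+CS 4 and 2 in PF 1. In PF+CS 4, Pomc was high at 20.2 CPM against 16.3 to 16.8 CPM in the other PF+CS libraries, Sirt6 was high at 11.6 CPM against 10.1 to 10.3 CPM, Sirt3 was low at 15.8 CPM against 19.1 to 19.5 CPM, and Btg2 was low at 11.1 CPM against 15.98 to 16.9 CPM. In PF 1, Pomc was high at 23.6 CPM against 16.7 to 17.5 CPM in the other PF libraries, and Cartpt was high at 68.6 CPM against 53.3 to 54.4 CPM. The other PF values were Gpr162 in PF 2 (low, 71.0 CPM against 78.5 to 79.3), Me1 in PF 3 (high, 59.2 CPM against 54.9 to 55.6) and Igf1r in PF 4 (high, 183.6 CPM against 168 to 169.9).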

How the results depend on the processing

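The 14 calls of PF+CS minus PF became 29 with DESeq2 (25 higher, 4 lower), which tested 8421 genes after its own filter and shared all 14, and 20 without a filter on low counts. There were 13 calls with DESeq2 size factors, 13 with upper-quartile scaling, 14 with voom and 16 without Rn45s. There were 0 calls in each of the 3 limma fits on log2(FPKM + 0.1), filtered or not, and log2(FPKM + 1), with 1189, 1585 and 1175 genes at an unadjusted p under 0.05; the cause was not tested. Fitting the PF+CS and PF libraries alone gave 7 calls, 6 of them shared. Leaving out 1 library gave 1 to 24 calls. Without the 5 libraries low in meningeal markers there were 0 calls and 781 genes at an unadjusted p under 0.05, and without PF 1 and PF 2 there were 0 calls and 682 such genes, with fewer samples in both. The offset for length and GC content gave 7. The last 2 were chosen after seeing the data. The interaction had 0 calls under every alternative run.

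Libraries with the same replicate number showed no regular likeness. Deviations of PF+CS and PF libraries with the same number correlated at 0.0473, −0.333, 0.222 and −0.530, and 0 of 4 PF+CS libraries correlated best with their own number. PF 1, PF 2 and PF+CS 4 were low in meningeal markers, and their partners by number were not, which also enters these deviations. Whether mice with the same number shared a cage or a day was not tested. With a replicate block there were 13 calls, 12 of them shared, and 0 in the interaction.

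Signs turned only for values near 0 that were never called. Socs3 was −0.030 in both fits on log2(FPKM + 0.1), −0.010 on log2(FPKM + 1), −0.030 without PF 1 and PF 2, and −0.16 to 0.33 when 1 library was left out. Agrp was −0.0039 without the 5 low libraries, −0.072 without PF 1 and PF 2, and −0.048 to 0.17 with 1 library left out. Pomc was 0.012 without PF 1 and PF 2 and −0.15 to 0.033 with 1 library left out, where only the fit without PF 1 was positive. Pnn was −0.020 to 0.021 with 1 library left out. Low genes, such as Agrp, are limited by depth. Socs3 was spread widely between libraries, at 7.72 ± 3.46 CPM in PF+CS and 7.48 ± 3.53 CPM in PF (SD, n = 4 each). A difference not called in such genes is not shown to be absent.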
